A study of Mus musculus with 20 samples.

Results

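Cxcl13 and 8 other genes of the chemokine system of lymphoid tissue were followed in 2 tissues, liver and white adipose tissue (WAT), of mice on a high-fat diet, either WT(HFD) or CD44KO(HFD). The 9 genes were Cxcl13, Cxcl12, Ccl19, Ccl21a, Ccl21b, Ccl21c, Ccr7, Ltb and Lta, out of 28786 gene names on the array. They were taken by gene name, and they were chosen with the CD44KO and WT values of these arrays in view, because Cxcl13 lay in opposite directions in the 2 tissues. Differences between the genotypes in these genes are therefore given as a description, without a test.

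Cxcl13 draws B cells into follicles, and Ccl19 and the Ccl21 proteins draw T cells and mature dendritic cells through their shared receptor, Ccr7. Cxcl12, which acts through Cxcr4, is made by stromal cells of many tissues and holds leukocytes in place. Lymphotoxin, a complex of the Lta and Ltb proteins on lymphocytes, signals through Ltbr to stromal cells and induces these chemokines during the formation of lymphoid tissue.

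All mice were male C57BL/6, 7 months old, and had received a 35% fat diet for 21 weeks. The CD44KO mice came from a CD44-deficient line backcrossed onto C57BL/6J, and the groups compared here were all on this diet. Total RNA from liver and from WAT of 5 mice per genotype was read with 1 dye on 20 arrays, 5 in each of WT liver, CD44KO liver, WT WAT and CD44KO WAT. Levels are log2 fluorescence intensities relative to the 75th percentile of the same array, so 0 is the 75th percentile and 1 unit is a doubling. A level was treated as measured when the scanner software had marked the spot as well above background.

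WAT arrays 1 and 5 of the WT mice stood apart. On WT WAT array 1, 89.5% of spots were well above background against 63.2% to 69.5% on the other 9 WAT arrays, and its dim probes read high. WT WAT array 5 held the highest level among the 5 WT WAT arrays for 6 of the 7 genes read here, together with high levels of B and T cell markers. Differences in WAT are therefore also given without these arrays. Array 5 was set apart partly by the levels of these same genes. Leaving it out thus raises CD44KO minus WT for those 6 genes by construction, and the change is a description, not a check. In liver 57.4% to 61.9% of spots were well above background. The identity of the samples was checked on Cd44: 2 of its 3 probes were lower in CD44KO in both tissues with no overlap between genotypes, and the third was well above background on at most 3 of 5 arrays of any group. The adipocyte markers averaged 3.53 to 5.73 on the WAT arrays against -4.30 to -2.70 in liver, and the hepatocyte markers 7.12 to 8.09 in liver against -2.87 to 0.92 in WAT.

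Of the 9 genes, 7 had a probe of their own name, on 9 probes of 41174. Each probe has 60 bases, and the 30 bases at its 5′ end are shown because the level of a gene is only what its probe binds. Positions are those of the array files in mouse build mm7. The Cxcl13 probe lies on the plus strand at chr5:95174192-95174251.
Cxcl13: gatttattgtcttgcattaaaaccagtaac
The brighter Cxcl12 probe lies at chr6:117207552-117207611 on the plus strand, and the other, designed on a different transcript of the gene, starts 6753 bases before it, at chr6:117200799-117200858. They share no run longer than 5 bases, so they can report different transcripts.
Cxcl12, brighter probe: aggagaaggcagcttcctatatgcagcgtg
Cxcl12, other probe: gaattaatcataaacggaagtttaaatgag
The Ccl19 probes start 80 bases apart on a contig that was not yet placed on a chromosome in that build.
Ccl19, brighter probe: gtggctagaacaccatctctctgtggctag
Ccl19, other probe: ctcctgatgctctgtcccagacctaaccca
The Ccl21c probe is annotated in the files to the transcripts of Ccl21a, Ccl21b and Ccl21c alike, which are near-identical copies, so it cannot tell them apart. Ccl21a and Ccl21b had no other probe, and the 3 genes are reported as 1 value.
Ccl21c: tggttcacggtccaactcacaggcaaagag
The remaining probes lie on the minus strand at chr11:99253592-99253652 for Ccr7, on the plus strand at chr17:33292571-33292630 for Ltb and on the minus strand at chr17:33299547-33299606 for Lta. Ltb and Lta are neighbours in the class III region of the major histocompatibility complex, with Tnf between them.
Ccr7: cttctagcttagagagatgtcccggagatt
Ltb: atctgtattcattcctggaggatcgactga
Lta: aggggaaaaatagaaagccgtcagatgaca
The array files do not say whether a probe lies in a coding exon or an untranslated region.

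Cxcl13 was higher in CD44KO than in WT liver on every array. In WT liver its levels were -6.46, -5.74, -6.69, -3.75 and -6.22 on arrays 1 to 5, and only array 4 was well above background. In CD44KO liver they were -2.49, -2.74, -2.29, -2.15 and 0.52, all well above background. The groups did not overlap, and CD44KO array 5 stood well above the other 4. The mean was -5.77 ± 1.18 (SD, n = 5) in WT and -1.83 ± 1.33 in CD44KO liver, a log2 difference of 3.95 (SE 0.80), or 15.4-fold. Because 4 of the 5 WT signals were not well above background, this fold rests partly on values at the limit of the array. With each of these signals set to the dimmest one that passed on its array, the log2 difference was 2.93, or 7.60-fold. After normexp background correction, which compresses dim signals, it was 1.72.

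In WAT the difference ran the other way and the genotypes overlapped. Cxcl13 was at -1.60, -3.16, -0.96, -3.17 and 0.56 on the WT arrays and at -3.55, -5.94, -2.39, -2.53 and -1.64 on the CD44KO arrays. All 10 signals were well above background, and WT array 5 was the highest while CD44KO array 2 was far below the rest. The log2 difference was -1.54 (SE 1.03) with all arrays, -0.99 without WT array 5 and -0.78 without WT arrays 1 and 5. The difference in liver exceeded that in WAT by 5.49, by 4.47 with the dim liver signals raised, by 3.71 when WT WAT arrays 1 and 5 were also left out, and by 3.0 after normexp. In bulk tissue fewer cells of a type and less RNA per cell cannot be told apart, here and for the other genes.

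Liver arrays lay on 3 slides and WAT arrays on 3 others, so the genotypes could be compared within a slide. In liver the log2 difference in Cxcl13 was 2.30 within slide 1, 5.46 within slide 2 and 4.2 within slide 3, and 3.95 with the slide as a block. Liver slides 1 and 2 held 2 arrays of each genotype, and slide 3 held only 1 of each. In WAT the difference was -1.40 and -1.20 within the 2 slides that held both genotypes, and -1.32 with the slide as a block. The first of these WAT slides held 2 arrays of each genotype, and the second 3 WT arrays and 1 CD44KO array. All liver arrays were read on 1 scanner and all WAT arrays on another, so that tissue, slide and scanner cannot be told apart in any comparison between tissues.

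Between tissues Cxcl13 went in a different order in each genotype. The group means ran from WT liver at -5.77 through CD44KO WAT at -3.21 ± 1.67 (SD, n = 5) and CD44KO liver at -1.83 to WT WAT at -1.66 ± 1.58. The 3 upper groups overlapped each other. WT liver lay below WT WAT and below CD44KO liver without overlap, and its highest array overlapped CD44KO WAT, whose lowest was -5.94.

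**Figure D1:**
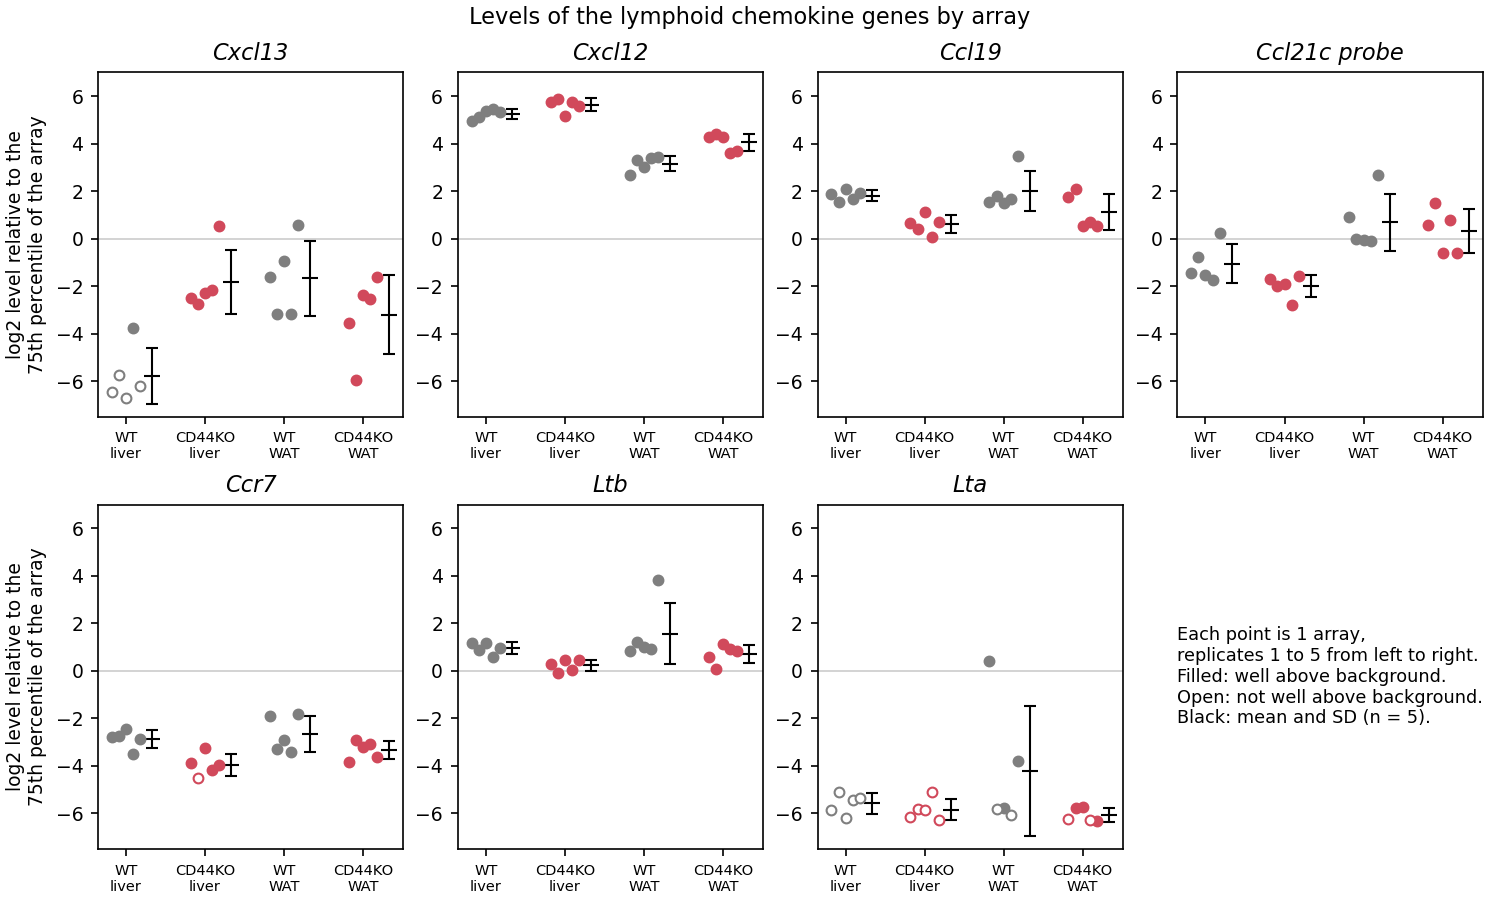
Log2 level of each gene relative to the 75th percentile of the array (y axis) in the 4 groups (x axis), with each array as a point, open where the signal was not well above background, and black bars for the mean ± SD (n = 5). Cxcl13, Ccl19 and Ltb separate WT from CD44KO liver, Cxcl12 separates WT from CD44KO WAT, and WT WAT array 5 is the highest point of its group for 6 of the 7 genes.

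Most of the other genes did not follow Cxcl13 in liver. Of the 6 others read, 5 were lower and 1 was higher in CD44KO liver, counting Lta, which no liver array measured, and the same numbers, 5 and 1, were found in WAT. The median log2 difference over the 6 was -0.83 in liver and -0.77 in WAT, against 0.08 and -0.06 over all probes tested. A probe entered the tests where 3 or more arrays of either group had measured it, a filter that 6 of the 7 genes passed in liver and all 7 in WAT. The genotypes did not overlap in 3 of the 7 genes in liver, against 11.7% of all probes tested, and in 1 of 7 in WAT, against 6.18%. Since the genes were selected on this contrast, nothing is read from these counts.

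Ccl19, a ligand of Ccr7, had the most negative difference between CD44KO and WT liver among the chemokines chosen here. Its levels in WT liver were 1.87, 1.54, 2.07, 1.66 and 1.92, and in CD44KO liver 0.67, 0.41, 1.10, 0.08 and 0.71. Every CD44KO array lay below every WT array. The log2 difference was -1.22 (SE 0.19), and the other probe gave -1.22 as well, also without overlap. In WAT the WT arrays stood at 1.56, 1.79, 1.51, 1.65 and 3.49 and the CD44KO arrays at 1.74, 2.10, 0.52, 0.70 and 0.52. The CD44KO arrays fell into a pair at WT level and 3 below it, and WT array 5 was far above the rest. The log2 difference was -0.89 (SE 0.50), and -0.54 without WT arrays 1 and 5.

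The Ccl21c probe, which reads the 3 Ccl21 genes together, was at -1.44, -0.77, -1.55, -1.76 and 0.25 in WT liver and at -1.70, -2.0, -1.90, -2.78 and -1.59 in CD44KO liver. The groups overlapped, and the log2 difference was -0.94 (SE 0.42). In WAT the WT arrays had 0.90, 0.00, -0.06, -0.11 and 2.69 and the CD44KO arrays 0.56, 1.5, -0.61, 0.78 and -0.59. The log2 difference of -0.36 (SE 0.67) in WAT took its direction from WT array 5: it was 0.15 without that array and 0.39 without arrays 1 and 5. It was also 0.13 when the arrays were scaled by their medians.

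Cxcl12 was the 1 gene of the 6 that was higher in CD44KO in both tissues. In WAT its brighter probe read 2.67, 3.31, 3.0, 3.40 and 3.42 in WT and 4.26, 4.40, 4.26, 3.62 and 3.69 in CD44KO, without overlap, a log2 difference of 0.89 (SE 0.22). The difference was 0.81 without WT arrays 1 and 5. In liver the levels were 4.95, 5.13, 5.38, 5.44 and 5.35 in WT and 5.77, 5.89, 5.18, 5.77 and 5.57 in CD44KO, with overlap through CD44KO array 3 and a difference of 0.38 (SE 0.16). The other Cxcl12 probe gave smaller differences, 0.09 (SE 0.08) in liver and 0.21 (SE 0.16) in WAT, and its genotypes overlapped in both tissues.

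Ccr7, the receptor for Ccl19 and the Ccl21 proteins, was dim in both tissues. In WT liver it was at -2.80, -2.76, -2.46, -3.50 and -2.87, and in CD44KO liver at -3.89, -4.51, -3.25, -4.17 and -3.97, where array 2 was not well above background. The CD44KO arrays other than array 3 were below all WT arrays, and the log2 difference was -1.08 (SE 0.27), or -0.26 after normexp background correction. In WAT the difference was -0.68 (SE 0.38), and -0.14 without WT arrays 1 and 5, whose levels of -1.91 and -1.80 were the highest of the group.

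Ltb, the membrane anchor of the lymphotoxin complex, separated the genotypes in liver. WT liver had 1.18, 0.88, 1.15, 0.58 and 0.97 and CD44KO liver 0.29, -0.10, 0.45, 0.05 and 0.44, a log2 difference of -0.73 (SE 0.16). In WAT the 4 WT arrays other than array 5 lay between 0.83 and 1.22 and array 5 at 3.83, while the CD44KO arrays had 0.59, 0.09, 1.12, 0.90 and 0.83. The log2 difference of -0.85 (SE 0.60) was -0.29 without array 5. Lta, the other subunit, was not well above background on any liver array, so no fold is given there. In WAT it was well above background on 3 arrays of each genotype, with WT array 1 at 0.41 and every other array between -6.32 and -3.81, and the log2 difference was -1.85 with all arrays but -0.18 without WT arrays 1 and 5.

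**Figure D2:**
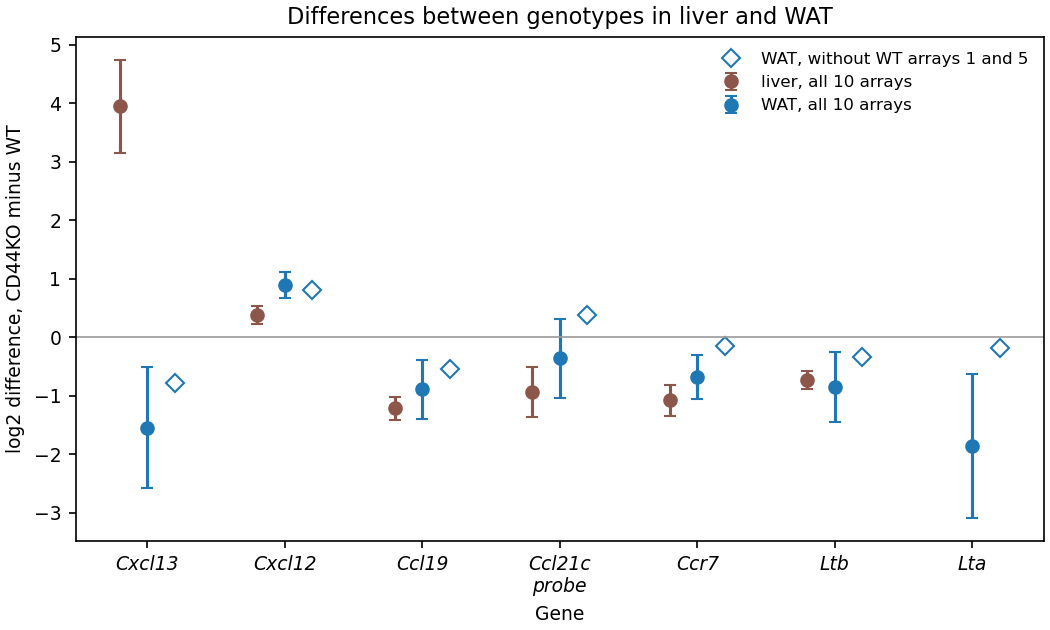
Log2 difference, CD44KO minus WT (y axis), for each gene (x axis) in liver and in WAT, as filled points with the standard error, and in WAT without WT arrays 1 and 5 as open diamonds. Cxcl13 is at 3.95 in liver and -1.54 in WAT, Cxcl12 is above 0 in both, and without the 2 arrays the WAT points of Ccl21c, Ccr7, Ltb and Lta lie between -0.34 and 0.39; Lta in liver is not drawn because no array measured it.

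Levels by tissue had not been used to choose the genes, and were tested for the 6 genes other than Cxcl13. Cxcl12 was lower in WAT than in liver in both genotypes, and the Ccl21c probe was higher. In WT, 2 of the 6 genes passed an adjusted p of 0.05 in limma, against 68.3% of all probes tested, and in CD44KO 4 of 6, against 77.0%. For the brighter Cxcl12 probe the log2 difference, WAT minus liver, was -2.09 (95% interval -2.48 to -1.71, limma adjusted p = 2.56e-06) in WT and -1.59 (-2.03 to -1.14, limma adjusted p = 2.23e-05) in CD44KO. The other Cxcl12 probe showed no such difference, with -0.20 (-0.54 to 0.14) and -0.08 (-0.39 to 0.22), so the result holds for 1 of the 2 Cxcl12 probes. These p-values measure the spread between arrays of 5 mice each, and the number of arrays limits their precision.

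The Ccl21c probe was higher in WAT by 1.74 (95% interval 0.40 to 3.08, limma adjusted p = 0.0253) in WT and by 2.32 (1.43 to 3.22, limma adjusted p = 0.000288) in CD44KO, where the tissues did not overlap. Without WT WAT arrays 1 and 5 the difference in WT was 1.0 with an adjusted p of 0.0563 in limma, and without WT liver array 1, 3 or 4 it was 1.56 to 1.64 with limma adjusted p-values of 0.0544 to 0.0596. In CD44KO, Ccr7 was higher in WAT by 0.62 (0.06 to 1.18, limma adjusted p = 0.0420) and Ltb by 0.48 (0.03 to 0.93, limma adjusted p = 0.0484). Without CD44KO liver array 1, 2 or 4 or CD44KO WAT array 3 or 4, only 2 of the 6 genes were called in CD44KO. In WT the same differences were 0.22 (-0.57 to 1.01) and 0.61 (-0.60 to 1.81) and did not pass. Ccr7 in CD44KO did not keep its direction: after normexp background correction it was lower in WAT by a log2 difference of -0.61 with a limma adjusted p of 0.0555. Ccl19 did not pass in either genotype, at 0.19 (-0.62 to 1.0) and 0.52 (-0.22 to 1.26), nor did Lta, which no liver array measured.

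The genes around these chemokines were read from 48 other genes: homeostatic chemokine ligands, their receptors and scavengers, the lymphotoxin and TNF pathway, and genes of lymphoid stroma and high endothelial venules. In liver 40 of the 48 were tested, and 5 fell and 1 rose in CD44KO, against 13.6% of all probes called in either direction. The median log2 difference over the 40 was -0.09. In WAT 44 were tested and none passed in limma, against 0.0398% of all probes. An unadjusted p under 0.05 was found for 8 of the 44, against 14.9% of all probes in WAT. The genes called in liver came from 2 of the 4 groups, with 2 of 17 tested in the lymphotoxin and TNF pathway and 4 of 10 in lymphoid stroma and venules.

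Among stroma and venule genes Vcam1, the adhesion molecule bound by lymphocyte integrin, was at 1.58, 1.51, 0.76, 1.21 and 1.27 in WT liver and at 0.11, -0.30, 0.67, -0.12 and 0.15 in CD44KO liver. It fell by 1.16 on the log2 scale (SE 0.20, limma adjusted p = 0.0121) without overlap. Fut7, a fucosyltransferase that builds selectin ligands, fell by 1.39 (SE 0.24, limma adjusted p = 0.0124), also without overlap, from a mean of -1.90 to -3.28. Mfge8, a secreted protein of macrophages and follicular dendritic cells that bridges apoptotic cells to phagocytes, fell by 0.81 (SE 0.22, limma adjusted p = 0.0361), and Enpp2, which makes lysophosphatidic acid, rose by 0.31 (SE 0.09, limma adjusted p = 0.0478). In the lymphotoxin pathway Nfkb2, the precursor of the p52 subunit of non-canonical NF-kappaB, fell by 0.64 (SE 0.16, limma adjusted p = 0.0330), and Traf3, which restrains that arm, fell by 0.33 (SE 0.07, limma adjusted p = 0.0186). Only Vcam1 kept its call under all 18 alternatives run for it, Fut7 lost it under normexp, Traf3 kept it under 13, Mfge8 under 7, Nfkb2 under 6 and Enpp2 under 3. Without WT array 1, 2 or 5 or CD44KO array 1, 4 or 5 the count of 6 was 2 or 3.

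None of the 5 receptors and scavengers named for these ligands passed the threshold within a tissue. Cxcr5, the receptor of Cxcl13 on B cells, had a log2 difference of 0.13 (SE 0.17) in liver and -1.06 (SE 0.64) in WAT. In WAT its WT levels were -1.53, -3.67, -2.75, -4.17 and -0.48, highest on arrays 5 and 1, and the CD44KO levels lay between -3.98 and -2.96. Cxcr4, the receptor of Cxcl12, had -0.39 (SE 0.45) in liver, where it was well above background on 4 WT and 2 CD44KO arrays, and -0.36 (SE 0.19) in WAT. Ackr3, which scavenges Cxcl12, had -0.99 (SE 0.30, limma adjusted p = 0.0552) in liver and 0.11 (SE 0.23) in WAT. Ltbr, the lymphotoxin receptor, had 0.36 (SE 0.13) in liver, without overlap, and 0.15 (SE 0.19) in WAT.

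Ackr4, which scavenges Ccl19 and Ccl21, was the 1 gene of the 44 tested whose difference between genotypes itself differed between tissues, against 1.15% of all probes. Its WT liver levels were -4.38, -3.77, -4.61, -3.68 and -3.81 and its CD44KO liver levels -3.56, -3.63, -3.51, -3.46 and -2.70. In WAT the WT arrays had -2.81, -4.2, -3.39, -4.97 and -3.94 and the CD44KO arrays -6.92, -5.09, -6.75, -5.78 and -5.70. The genotypes did not overlap in either tissue, and the signal was well above background on 4 WT and 5 CD44KO liver arrays and on 5 WT and 3 CD44KO WAT arrays. The log2 difference was 0.68 (SE 0.23) in liver and -2.19 (SE 0.46) in WAT, neither past the threshold alone, and the interaction was 2.86 (limma adjusted p = 0.0201). It stayed past the threshold in all 20 fits that left out an array, and was 1.90 with a limma adjusted p of 0.190 after quantile normalization. Like Cxcl13, Ackr4 was higher in CD44KO liver and lower in CD44KO WAT, but these directions were not particular to the 2 genes. All 7 Kupffer cell markers were higher in CD44KO liver, and in CD44KO WAT 6 were lower and 1 higher, none past the threshold there.

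**Figure D3:**
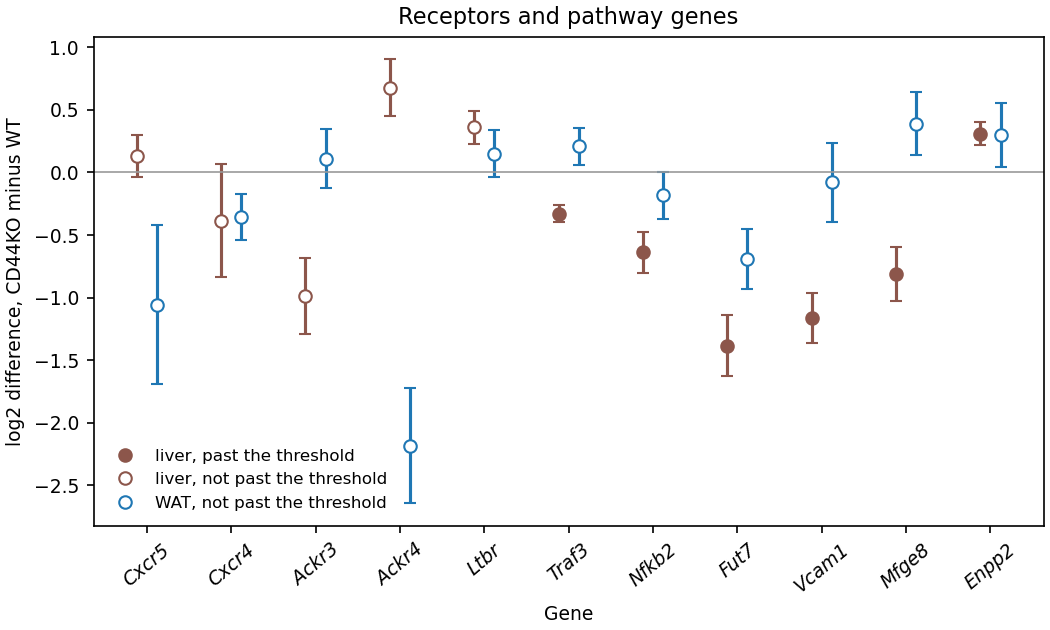
Log2 difference, CD44KO minus WT, with its standard error from limma (y axis) for the receptors and for the pathway genes that passed in liver or in the interaction (x axis), in liver and in WAT. Filled points passed an adjusted p of 0.05: Traf3, Nfkb2, Fut7, Vcam1 and Mfge8 below 0 and Enpp2 above 0 in liver, and no gene in WAT, where Ackr4 is the lowest at -2.19.

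Like Cxcl13, the Kupffer cell and hepatocyte markers were higher in CD44KO liver, where most of the other chosen genes were lower. All 7 Kupffer cell markers tested were higher in CD44KO liver, 2 of them past the threshold against 13.6% of all probes, and their mean level ran from -1.0 to 2.41 in WT and from 2.20 to 3.02 in CD44KO. Marco, a scavenger receptor, was at 1.55, 1.88, -0.71, 3.49 and 0.17 in WT and at 3.95, 2.68, 4.63, 3.74 and 6.11 in CD44KO, and rose by 2.95 (limma adjusted p = 0.0410). Timd4, a phosphatidylserine receptor of resident macrophages, was at -3.64, -2.94, -6.73, -1.66 and -5.32 in WT and at -1.33, -1.53, -1.25, -1.33 and 0.12 in CD44KO, and rose by 2.99 (limma adjusted p = 0.0414), a value that includes signals not well above background on WT arrays 3 and 5. WT array 4, the only WT liver array that measured Cxcl13, was the highest WT array for Marco, Timd4 and Cd163, and CD44KO array 5 was the highest for Cxcl13, Marco and Timd4. For Cd163 CD44KO array 5 was the lowest of its group. For Clec4f WT array 4 was the highest of its group, at 4.30. Among the CD44KO arrays Clec4f was highest on array 1, at 4.73, with array 5 at 4.23. The mean over all 7 markers was highest on WT array 4 and on CD44KO array 5. When 1 array was left out, no Kupffer cell marker passed in 7 of 10 fits, 1 passed in 2 fits, without CD44KO array 2 or 3, and 4 passed without WT array 4. None passed with the replicate number as a block or with no filter on dim probes. All 6 hepatocyte markers were also higher in CD44KO liver, by a median of 0.41, and 2 passed. The part of Kupffer cell RNA in the Cxcl13 difference was not tested.

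Most T cell markers were lower in CD44KO liver, as were Ccl19, Ccr7 and Ltb. Of 12 markers 9 were tested in liver and 5 fell, namely Cd3d, Cd3g, Cd8a, Lck and Lat, against 13.6% of all probes called. Of the other 4, Cd3e and Cd4 had log2 differences above 0, 0.12 and 0.20, and neither passed. The count was 4 to 5 when 1 array was left out, 1 with all 20 arrays in the fit and 0 after normexp background correction. The mean level over all 12 ran from -3.47 to -2.90 in WT and from -4.17 to -3.81 in CD44KO, without overlap. This mean includes markers that were not tested. Cd247 (log2 difference -1.46) and Cd28 (-0.07) were well above background on no liver array, and Il7r (-1.43) on 2 WT and 0 CD44KO arrays. Cd8a was well above background on all 5 WT and on no CD44KO arrays, and was at least 4.59-fold lower in CD44KO (limma adjusted p = 0.00296), a bound from the lowest signals well above background. None of the 7 B cell markers tested in liver passed in limma, and none had an unadjusted p under 0.05. The mean level over all 10 B cell markers, tested or not, was -3.75 to -3.37 in WT and -3.71 to -3.41 in CD44KO. The groups overlapped, although Cxcl13 is the chemokine of B cells. The part of T cell RNA in the differences of Ccl19, Ccr7 and Ltb was not tested.

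In WAT the lymphocyte markers were highest on WT arrays 1 and 5, in an order that differed between markers. On WT WAT array 5 the B cell markers Cd79b and Ms4a1 were at 2.29 and 0.80, against at most 0.21 and -1.44 on the other WT arrays, whereas the B cell marker Cd79a was at -2.25 on array 1 and -4.27 on array 5. The T cell marker Cd3d was at 0.65, against at most -1.49. The mean T cell marker level was -0.85 on array 5, -1.59 on array 1 and between -3.37 and -2.31 on the other WT arrays, and the CD44KO arrays lay between -3.54 and -2.51. The B cell markers averaged -1.42 on array 1 and -2.18 on array 5, against -4.84 to -3.51 on the other WT and -4.70 to -4.14 on the CD44KO arrays. These means cover 10 B cell markers, of which 8 were tested. Array 1, on which dim probes read high, was also the highest WT array for lists of other genes. The homeostatic chemokine ligands averaged -1.57 there against -4.05 to -3.59, and body cavity macrophage markers -0.84 against -2.90 to -2.49. The mesothelial, hepatocyte and adipocyte markers were highest on other WT arrays. All 8 mesothelial markers were also lower in CD44KO WAT, with a median log2 difference of -2.12 and none past the threshold, 7 of them with an unadjusted p under 0.05 against the 14.9% of all probes. All 6 adipocyte markers were higher by a median of 0.86 and all 6 hepatocyte markers by a median of 0.89, none past the threshold. What these cells contributed to the WAT differences was not tested.

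**Figure D4:**
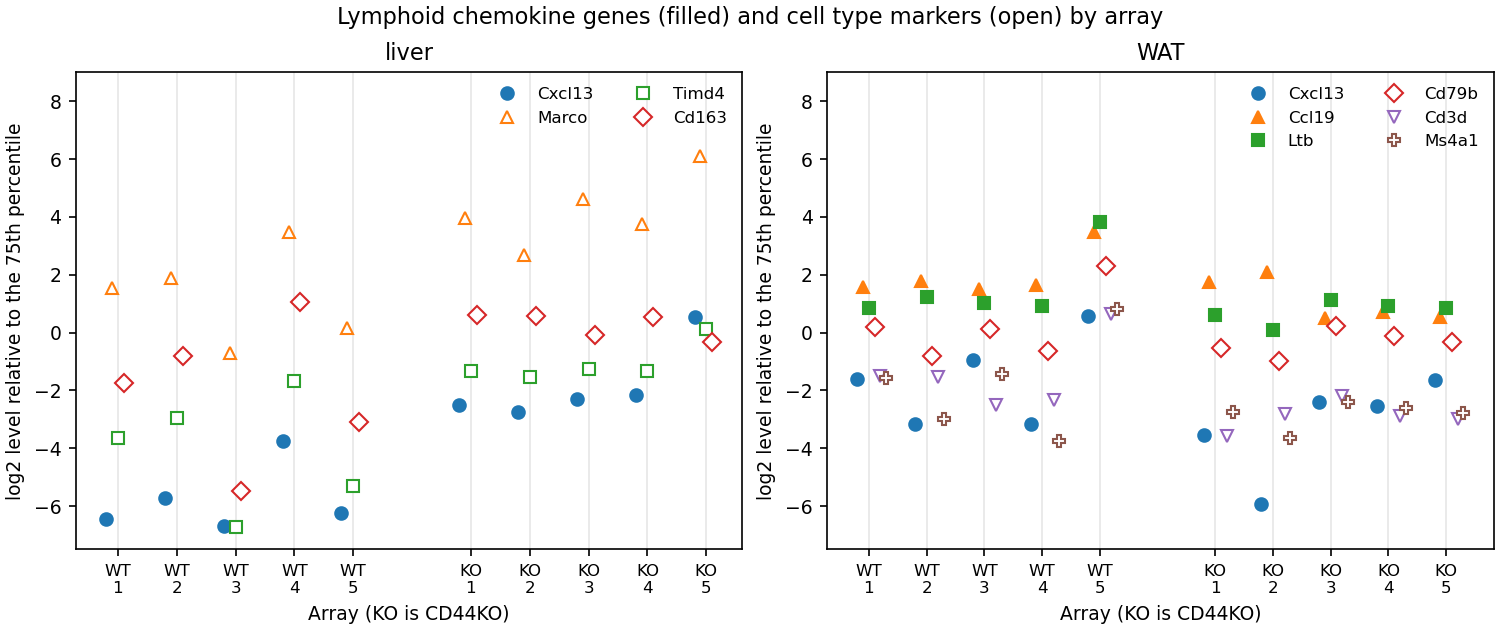
Log2 level relative to the 75th percentile of the array (y axis) on each array (x axis) in liver and in WAT, with chemokine system genes as filled and cell type markers as open symbols. In liver CD44KO array 5 has the highest point of Cxcl13, at 0.52, and of Marco, at 6.11; in WAT Cxcl13, Ccl19, Ltb, Cd79b, Cd3d and Ms4a1 all have their highest point on WT array 5.

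The genes most like Cxcl13 across arrays were listed for each tissue, with 4 of the 10 Cxcl13 values in liver not well above background. Bare transcript identifiers were passed over, although the counts of names include them. Over the 10 liver arrays and 17524 names, the 5 highest Pearson correlations left were those of 5330438D12Rik (r = 0.95), Zfp820 (0.95), Vps72 (0.94), Klhl20 (0.94) and Ccdc106 (0.94). After subtracting each genotype's mean these correlations were 0.89, 0.80, 0.74, 0.86 and 0.83. In WAT, over 18980 names, the 5 genes were Grk2 (r = 0.95), Tpd52l1 (0.93), Wwc1 (0.92), Igl-V1 (0.90) and Stk26 (0.90), with 0.94, 0.92, 0.91, 0.88 and 0.90 after subtracting the means. Igl-V1 is a name for immunoglobulin lambda light chain, a product of B cells and plasma cells. The arrays of a tissue share slides and scanner, and these correlations are a description of 10 arrays.

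Promoters were read for the motif of NF-kappaB, the factor through which Ltbr induces lymphoid chemokines. The RefSeq promoter set (GRCm38.p6) held 7 of the 9 genes, each from 250 bases before to 50 after the start. The kappaB consensus was searched on both strands. It was found in 1 of the 7, that of Ltb, and in 8.46% of all 32851 promoters. The 100 bases at chr17:35194375-35194474 on the plus strand, which lie 132 to 33 bases before the start of Ltb, are shown with the match in capitals, 87 to 78 bases before the start and on the opposite strand.
Ltb promoter: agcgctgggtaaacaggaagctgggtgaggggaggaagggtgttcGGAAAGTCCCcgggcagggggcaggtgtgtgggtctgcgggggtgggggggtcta
No match was found in the window of Cxcl13, Cxcl12, Ccl19, Ccl21a, Ccl21b or Lta. The match, or its absence, is a description of these letters. It says nothing of binding, of sites of another form or of sites outside the window.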

How the data were processed

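Liver and WAT RNA of 5 mice per genotype was hybridised to 20 Agilent 1-dye arrays. The intensity values were deposited by the authors as processed signals from Agilent Feature Extraction 9.5 (9.5.3.1 per the file headers), with marks for outlying spots and for spots more than 13 times the background's standard deviation above it. No scaling between arrays had been applied, and the study's methods name no test for the arrays. The log2 processed signal minus each array's 75th percentile was used, outlying spots were left out, and spots of a probe were averaged. A gene was read by its brightest probe. Of 41174 probes, 22951 were named through accessions. Groups came from the labels. limma 3.58.1 (lmFit, eBayes) in R 4.3.3 compared genotypes within a tissue, tissues within a genotype, and their interaction over all 20 arrays, with Benjamini-Hochberg adjustment over 24689 probes in liver, 27654 in WAT, 28365 and 28343 between tissues, and 28989 in the interaction. Both tissues came from the same mice, which the fits did not model. Standard errors of the chosen genes are those of 2 group means. The fit was tested on simulated data with residuals shuffled within each probe. This removes what the probes of an array share, so it cannot show how the fit treats arrays that stand apart. Tables and plots used pandas 2.3.3 and matplotlib 3.10.9.

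The genes, the pathway and marker lists and the tests were chosen with earlier results of these data known. Named beside the chosen genes were pathway genes past the threshold in liver, in WAT or in the interaction, 5 receptors whatever their result, and, in each tissue, the 5 symbols most correlated with Cxcl13, passing over bare transcript identifiers. Markers were named to show their values beside a result, after they were seen. Alternatives were another background correction, scaling, filter, treatment of outlying spots, choice of probe, the slide or replicate number as a block, all 20 arrays in each fit, and leaving out each array. Chosen after seeing the data were leaving out WT WAT arrays 1 and 5 together, raising dim signals, and rerunning the interaction without each array.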

Additional observations from a re-analysis of the deposited data

Results flagged for a closer look

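Among 72 groups of 5 arrays, the highest or lowest value lay far from the others in 5, by a gap of over 0.71 of the group's range, and chance alone gives about 1 group in 20. Cxcl13 was 0.52 on CD44KO liver array 5, while the other 4 lay between -2.74 and -2.15. Ackr4 was -2.70 on the same array, against -3.63 to -3.46. Ccl19 was 3.49 and Ltb 3.83 on WT WAT array 5, where the nearest other arrays had 1.79 and 1.22. Ltbr was 4.36 on CD44KO WAT array 1, against 3.70 to 3.87. The effect of the genotype on Ackr4 differed between liver and WAT by 2.86 in the limma interaction.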

How the results depend on the processing

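Liver calls depended on the settings. With 3358 probes called in liver, the fit of all 20 arrays called 723, no filter 1027 and normexp 641, and 6 pathway genes became 2 in each. In WAT 11 calls became 1817 with all 20 arrays in the fit (4 pathway genes), 19 with median scaling, 35 with normexp, 3 with no filter and 4 with the slide as a block. The interaction count of 1 was 2 under normexp and without WT WAT arrays 1 and 5, and 0 after quantile normalization. Genes called between tissues fell from 2 to 1 in WT without those arrays, and from 4 to 2 in CD44KO with all 20 arrays in the fit. The Cxcl13 difference of 3.95 in liver was 1.72 under normexp and 2.30 and 5.46 within slides 1 and 2; that in WAT kept its direction under all 22 alternatives. Ccr7 between CD44KO tissues reversed to -0.61 under normexp. The causes were not tested.

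Leaving out 1 array gave 924 to 4695 calls in liver, 3 to 37 in WAT, 2 to 8 and 0 to 0 pathway calls, 1 to 2 in the interaction, 1 to 2 and 2 to 4 genes between tissues in WT and CD44KO, and 9 to 10 of the 12 differences of the other genes below 0. The Cxcl13 difference was 3.36 to 4.45 in liver and -1.94 to -0.86 in WAT. Liver calls were 924 to 1821 without WT array 1, 2 or 5 or CD44KO array 1, 2, 4 or 5. WAT had 37 without WT array 1 and 3 to 6 without any other array, and the interaction count was 2 without WT WAT array 5.

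The replicate block gave 1329 calls in liver with 2 pathway genes and 3 in WAT. Deviations of same-numbered arrays, between genotypes and between tissues, correlated from -0.21 to 0.42. The labels do not say whether a number marks the same mouse in liver and WAT, and these correlations cannot decide it.

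Median scaling moved the median difference over all WAT probes from -0.06 to 0.42, and quantile normalization to 0.10, so WAT directions under about 0.5 depend on the scaling. Between CD44KO tissues, 9476 calls were higher and 12357 lower in WAT, but 11696 and 10039 with median scaling.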
